A study of Homo sapiens with 6 samples.

Results

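*NEAT1* and *MALAT1* are neighboring genes on chromosome 11 whose long RNAs stay in the nucleus. The members were taken by gene name from GENCODE release 44 mapped to GRCh37, and every R-loop peak that overlapped either gene record, or the 10 kb on each side of it, was kept. These windows held 6 of the 10231 peaks of untreated cells and 7 of the 11085 peaks of treated cells. The peaks come from strand-specific kethoxal-assisted sequencing (spKAS-seq) of wild-type HEK293T cells, an established line from human embryonic kidney. Untreated cells received no modified nucleoside, and treated cells were incubated with 10 μM N2-heptynyl-dG, a nucleoside that cells build into their DNA as a minor-groove lesion, for 3 h. Both groups were then exposed to 5 mM N3-kethoxal for 10 min. There were 2 samples per group and 2 inputs of untreated cells, but the peaks were given as 1 list per condition, attached to the first sample of each group. The lists hold positions and strands without heights or p-values, so no spread between replicates and no read depth stands behind any value given here, and no difference between the conditions was tested.

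An R-loop forms when a nascent RNA pairs with its template strand and displaces the other DNA strand. N3-kethoxal reacts with guanines that are not base-paired, so the displaced strand can be pulled down after labeling and its reads carry the strand. *NEAT1* RNA is the scaffold of paraspeckles, nuclear bodies built around the proteins NONO and SFPQ. A short, polyadenylated *NEAT1* RNA and a long one start at the same promoter, and only the long one can assemble paraspeckles. *MALAT1* RNA is among the most abundant nuclear RNAs of many human cells and gathers in nuclear speckles, which hold splicing factors. The 3′ ends of *MALAT1* and of long *NEAT1* are not polyadenylated. They are cut by RNase P, which frees a small tRNA-like RNA, and are protected by a triple helix.

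*NEAT1* (ENSG00000245532) lies on the plus strand from 65190245 to 65213011 (GRCh37), a record of 22767 bp with 9 annotated transcripts. The long transcript is a single exon from 65190269 to 65213011. Of the 9 transcripts, 6 end between 65193856 and 65193984, and among these the short transcript of the plots ends at 65193928. *MALAT1* (ENSG00000251562) lies 52099 bp downstream on the same strand, from 65265111 to 65275544, a record of 10434 bp with 66 transcripts. Its longest transcript spans the whole record as 1 exon, whereas 33 of the 66 transcripts start between 65266509 and 65266562, most often at 65266516. The commonest transcript end is 65273940, and 17 transcripts end within 150 bp of it.

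The reference sequence shows what lies at the starts. The next 2 lines give the 60 bases before and the 60 bases from the commonest *MALAT1* start (chr11:65266456-65266575) and the start of long *NEAT1* (chr11:65190209-65190328), on the plus strand of GRCh37, with runs of 3 or more G in capitals.
MALAT1 start: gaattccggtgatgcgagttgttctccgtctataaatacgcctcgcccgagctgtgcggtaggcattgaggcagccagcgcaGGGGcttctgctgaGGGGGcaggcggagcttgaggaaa
NEAT1 start: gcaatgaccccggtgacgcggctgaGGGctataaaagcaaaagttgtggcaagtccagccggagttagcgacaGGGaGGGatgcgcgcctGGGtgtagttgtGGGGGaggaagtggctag
Both hold the letters TATAAA, the core of a TATA box, beginning 30 bases before the start of *MALAT1* and 31 bases before that of *NEAT1*. Among 35116 promoters given by RefSeq (GRCh38.p14), 2.78% hold these letters on the gene strand within the same 60 bases, and 3.75% hold them on either strand. The first 60 bases after the *NEAT1* start hold more G runs than those of *MALAT1*, as the capitals show.

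All R-loop peaks of the windows were on the plus strand, the strand of both genes, and none was on the minus strand in either list. In the lists as a whole, peaks inside a single protein-coding gene and no other record were on the strand of that gene in 77.1% of 2669 untreated peaks (95% Wilson interval 75.4% to 78.6%, counting error only) and in 74.0% of 2927 treated peaks (72.4% to 75.6%). Each peak also overlapped its gene record. None lay only in a flank, and the records alone gave the same peaks as the windows. The next peak before *NEAT1* was 68019 bp away and the next one after *MALAT1* 61681 bp away, in both lists. The windows hold 4 other gene records around *NEAT1* and 6 around *MALAT1*, and none of these had a peak on its own strand.

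In untreated cells, *NEAT1* had 3 peaks. The first, of 1500 bp from 65190476 to 65191975, began 207 bp after the start of the long transcript and lies in 8 of the 9 transcripts. The second, of 3250 bp from 65194476 to 65197725, began 548 bp past the end of the plotted short transcript and 492 bp past the last of the short transcript ends, so that only the long transcript runs through it. The third, of 2000 bp from 65211226 to 65213225, held the last 1786 bp of the long transcript and went 214 bp beyond its end. The peaks thus lay just inside the start, just past the ends of the short transcripts and across the end of the long one. A stretch of 13500 bp between the second and the third peak, which is most of the part of the gene that the short RNA lacks, had no peak. The second peak is a wide one, since 0.342% of the untreated list is at least as wide.

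**Figure D1:**
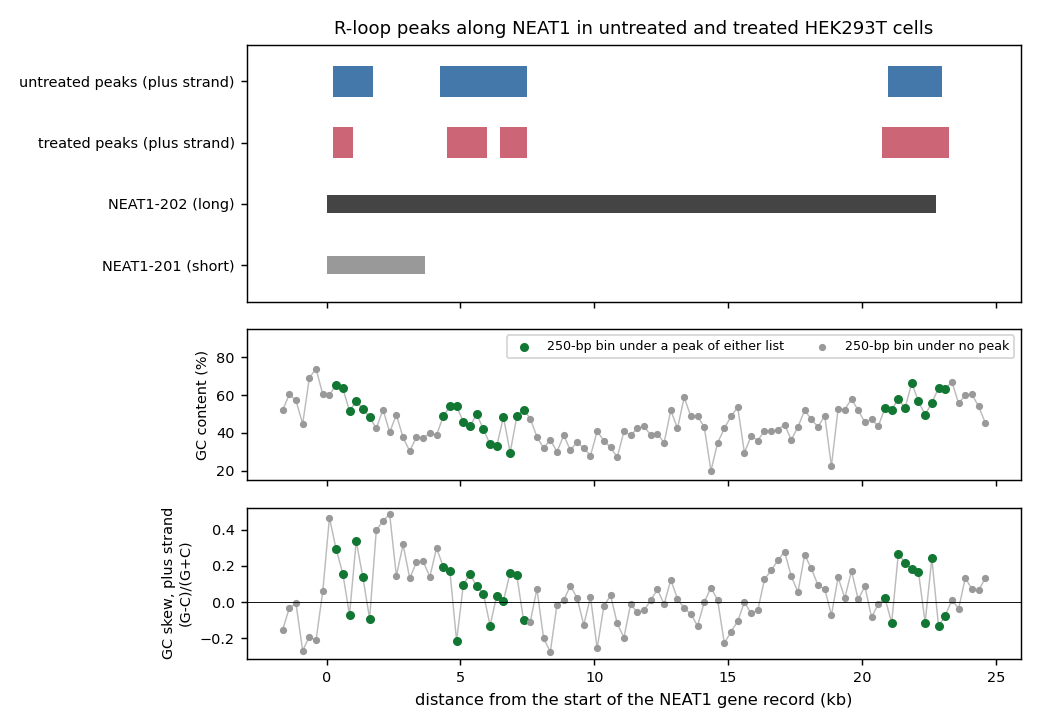
Upper panel, untreated and treated R-loop peaks above 2 annotated NEAT1 transcripts, against distance from the start of the gene record in kb; middle and lower panels, GC content in percent and GC skew of the plus strand in 250-bp bins, where green points lie under a peak of either list and grey points under none. The 3 untreated peaks of 1500, 3250 and 2000 bp face 4 treated peaks of 750, 1500, 1000 and 2500 bp, and the bin of highest GC skew lies between the first and the second untreated peak, under no peak of either list.

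After treatment, *NEAT1* had 4 peaks at the same 3 places, and every border except 2 was elsewhere. The first peak kept its start at 65190476 but ended at 65191225, 750 bp earlier, so that its width was 750 bp in place of 1500 bp. The second was in 2 pieces, from 65194726 to 65196225 and from 65196726 to 65197725, with a gap of 500 bp between them. Its start was 250 bp further along the gene and its end was unchanged. The last peak was longer on both sides, by 250 bp each, and covered 2500 bp from 65210976 to 65213475. It thus reached 464 bp past the end of the long transcript. Nearly all peaks of the lists have widths in multiples of 250 bp, 10225 of 10231 untreated and 11082 of 11085 treated ones, so that shifts of 250 bp are a single step of the grid on which peaks were defined.

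All 3 untreated *NEAT1* peaks had a treated peak of the same strand, as had 74.6% of all untreated peaks, and all 4 treated peaks had an untreated one, as had 69.2% of all treated peaks. Peaks of 1500, 2000 and 3250 bp, the widths found here, were matched more often than most, in 91.5% of 527, 98.5% of 268 and all of 19 untreated peaks. A split into 2 or more treated peaks was found for 0.88% of untreated peaks, and for 8 of the 35 untreated peaks (22.9%) at least as wide as the one in *NEAT1*. In 7443 pairs, 1 untreated peak met 1 treated peak and no other. The untreated peak was at least 2 times as wide as the treated one in 4.29% of them, as with the first *NEAT1* peak. The treated peak was longer at both borders in 2.74%, as with the last one. Both shares pool pairs of all widths and were not taken at the widths found here. No untreated *NEAT1* peak was found again with both borders in place, and 32.2% of all untreated peaks were. That share was 20.1%, 10.5% and 20.5% at widths of 1500, 3250 and 2000 bp, so that most peaks as wide as those of *NEAT1* did not keep both borders.

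In sum over the gene, untreated peaks covered 6750 bp and treated peaks 5750 bp, of which 5250 bp were the same. A total of 1500 bp was under untreated peaks alone and 500 bp under treated peaks alone. The shared bases were 77.8% of the untreated and 91.3% of the treated length, compared with 69.3% and 66.4% over all peaks of the lists. Within the gene record, 6536 bp or 28.7% was covered in untreated and 5286 bp or 23.2% in treated cells. The part up to the end of the plotted short transcript, which both the short and the long RNA use, was covered over 40.7% and then 20.4%. The part that only the long transcript uses was covered over 26.4% and then 23.8%. The larger number of peaks in the treated list therefore went with a shorter covered length.

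The next lines give, for each untreated *NEAT1* peak, the 100 bases richest in G on the plus strand, since G is the base that kethoxal labels, and the same for the 500-bp gap that split the second peak. Runs of 3 or more G are in capitals.
NEAT1 peak 1 (chr11:65190548-65190647): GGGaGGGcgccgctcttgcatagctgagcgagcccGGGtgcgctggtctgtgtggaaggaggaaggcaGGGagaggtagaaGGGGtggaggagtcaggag
NEAT1 peak 2 (chr11:65195348-65195447): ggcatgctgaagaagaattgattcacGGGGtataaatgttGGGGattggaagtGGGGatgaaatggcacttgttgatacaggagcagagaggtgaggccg
NEAT1 peak 3 (chr11:65211551-65211650): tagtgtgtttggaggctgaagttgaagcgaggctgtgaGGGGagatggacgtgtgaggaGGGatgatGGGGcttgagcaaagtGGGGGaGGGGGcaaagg
NEAT1 gap (chr11:65196365-65196464): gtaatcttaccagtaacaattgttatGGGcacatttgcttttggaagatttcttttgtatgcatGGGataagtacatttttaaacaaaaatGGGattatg
Those of the first and the last peak hold 50 and 51 G in 100 bases, against 16 and 7 C. That of the second holds 39 G. The richest stretch of the gap holds 20 G and 11 C.

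Over whole peaks, the first and the last untreated *NEAT1* peaks had G contents of 32.2% and 31.2% and GC contents of 56.5% and 57.0%, close to the median GC content of 56.2% of all untreated peaks. Their GC skew, the excess of G over C divided by the sum of both on the strand of the peak, was 0.140 and 0.0930, above that of 92.3% and 83.9% of the list, whose median was 0. The second peak was poorer in G, with 23.6% G, 45.0% GC and a GC skew of 0.0492. The gap inside it had 16% G, 33.6% GC and a skew of -0.0476. The 750 bp that were under the untreated first peak alone had 30.0% G and a skew of 0.139, nearly as the peak as a whole. The first 250 bp of the second peak, also under the untreated list alone, had 29.2% G, 48.8% GC and a skew of 0.197, and were thus nearer to that part of the first peak than to the gap. A G-quadruplex motif, 4 runs of GGG separated by 1 to 7 bases on the strand of the peak, was found in the last peak of both lists and in no other *NEAT1* peak. Of untreated peaks of 2000 bp, 23.1% hold this motif, and of treated peaks of 2500 bp, 27.0%.

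*MALAT1* had 3 peaks in untreated cells. The first, of 750 bp from 65266226 to 65266975, held the commonest transcript start, with 290 bp before it and 459 bp after it, and overlaps exons of 39 of the 66 transcripts. The second, also of 750 bp, from 65267726 to 65268475, began 1210 bp into the commonest transcript. The third, of 1750 bp from 65274226 to 65275975, began 286 bp past the commonest transcript end, and only the longest of the 66 transcripts reaches it. It extended 431 bp beyond the end of the gene record. The start of the record itself, 1405 bp upstream of the commonest start, had no peak, nor had the 5750 bp between the second and the third peak, which is most of the transcribed length.

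**Figure D2:**
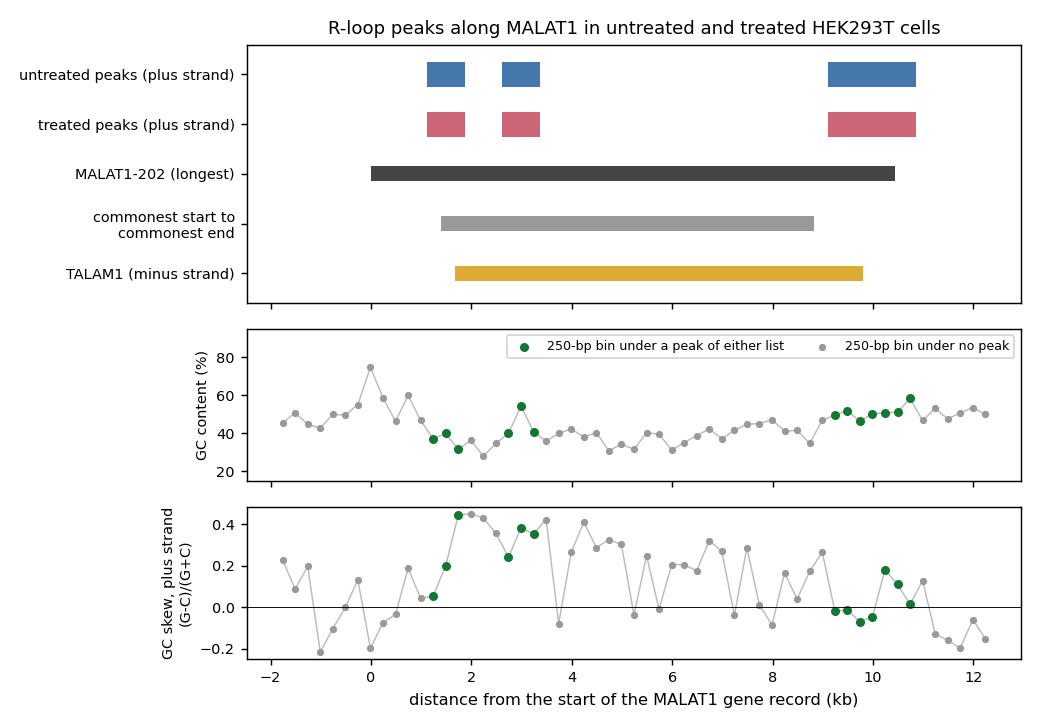
Upper panel, untreated and treated R-loop peaks above the longest MALAT1 transcript, the stretch from the commonest transcript start to the commonest end, and the antisense gene TALAM1, against distance from the start of the gene record in kb; middle and lower panels, GC content in percent and GC skew of the plus strand in 250-bp bins, where green points lie under a peak of either list and grey points under none. The peaks of 750, 750 and 1750 bp have the same borders in both lists, and many bins of high GC skew between the first and the third peak lie under none.

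After treatment, all 3 *MALAT1* peaks were found again with both borders and the strand unchanged. Identical borders were found for 32.2% of all untreated peaks, for 33.9% of the 2446 of 750 bp and for 19.8% of the 353 of 1750 bp. Peaks covered 3250 bp in both lists, and 2819 bp or 27.0% of the gene record. Between the commonest start and the commonest end, 16.3% of 7425 bp was covered, against 82.2% of the 1604 bp of the record after that end. *MALAT1* thus had no border change at the resolution of the lists, whereas each *NEAT1* peak had at least 1. Whether signal within these peaks changed was not analysed here.

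The antisense gene *TALAM1* lies on the minus strand across *MALAT1*, from 65266783 to 65274903, and its RNA has been linked to the processing and stability of *MALAT1* RNA. Its own start site, at 65274903, lies within the third *MALAT1* peak, 677 bp after the start of that peak and 1072 bp before its end. All 3 *MALAT1* peaks overlap the *TALAM1* record, on the opposite strand. No minus-strand peak was found in *TALAM1* in either list.

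The stretch of 100 bases richest in G in the second *MALAT1* peak is shown next, followed by the 60 bases on each side of the commonest *MALAT1* end, where no peak was found. That of the first peak overlaps the start shown above. Capitals again mark runs of 3 or more G.
MALAT1 peak 2 (chr11:65268083-65268182): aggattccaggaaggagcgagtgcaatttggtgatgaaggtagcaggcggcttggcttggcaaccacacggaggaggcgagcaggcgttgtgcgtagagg
MALAT1 end (chr11:65273881-65274000): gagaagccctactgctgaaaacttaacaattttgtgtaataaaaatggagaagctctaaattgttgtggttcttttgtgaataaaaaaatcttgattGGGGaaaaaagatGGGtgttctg
The stretch from the second peak has 42 G and 17 C but no G run. Those of the first and the third *MALAT1* peak hold 2 and 3 G runs. The *NEAT1* stretches hold 5 each in the first and the last peak and 3 in the second. The stretch around the *MALAT1* end has 28 G and 12 C in 120 bases and holds no CpG.

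The first *MALAT1* peak had a GC content of 36.3%, and 0.639% of untreated peaks had less. It also had few G runs, 0.4 per 100 bp, with 0.757% of the list below it. Its GC skew of 0.221 was above that of 97.8% of the list. The second peak had 45.1% GC, with 12.9% of the list below it, and a skew of 0.331, above 99.2% of the list. These 2 peaks thus lay at the high end of the list in GC skew. The first also lay at the low end in GC content. The third peak was unlike them, with 51.3% GC and a skew of 0.0234. No *MALAT1* peak held the G-quadruplex motif, which 19.4% of untreated peaks of 750 bp and 21.0% of those of 1750 bp hold.

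**Figure D3:**
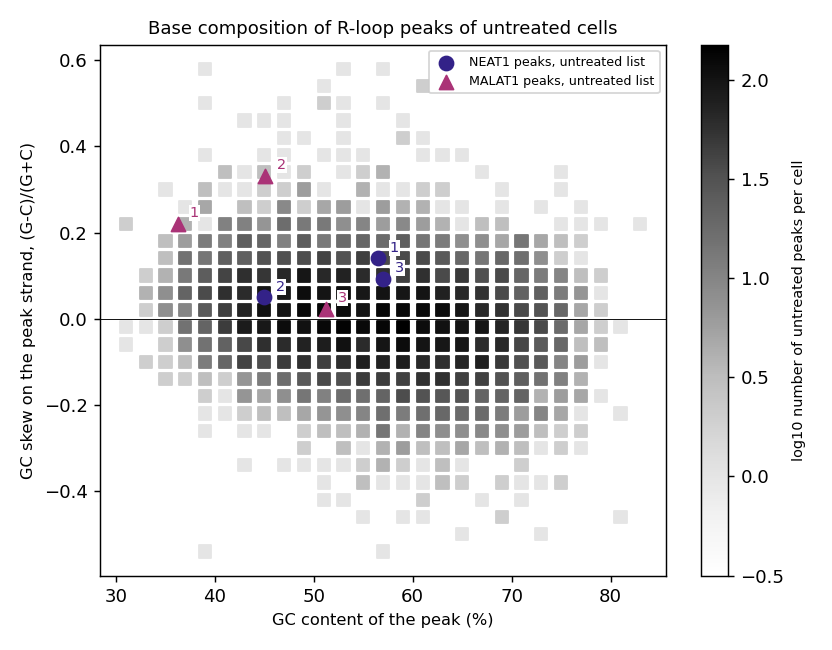
GC content in percent against GC skew on the peak strand for the untreated peaks (grey squares, shaded by the log10 number of peaks per cell), with the 3 NEAT1 peaks (circles) and the 3 MALAT1 peaks (triangles) numbered in the order of the genes. The grid holds 10137 of 10169 peaks. The first 2 MALAT1 peaks, with skews of 0.221 and 0.331, sit above the dense part of the list, and the first also to its left. The other 4 have skews between 0.0234 and 0.140.

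High GC skew was not confined to the peaks. In *NEAT1*, the 2500 bp between the first and second untreated peaks had a skew of 0.288, above that of any of its peaks, with 2.32 G runs per 100 bp and the G-quadruplex motif, and no peak in either list. In *MALAT1*, the 750 bp between the first and second peaks had a skew of 0.411, and the 5750 bp between the second and the third 0.175 together with the G-quadruplex motif. In bins of 250 bp within the gene record, those under a *NEAT1* peak of either list (28 bins) had a median G content of 27.2% and a median GC content of 52.4%, and those under none (64 bins) 21.4% and 40.8%. The ranges overlapped widely, from 14.8% to 42.4% G under peaks and from 10.4% to 44% elsewhere. In *MALAT1*, the 12 bins under peaks and the 31 others had medians of 24.6% and 23.6% G, and 48.0% and 40.4% GC. The median skew was higher under peaks in *NEAT1*, 0.116 against 0.0228, and lower under peaks in *MALAT1*, 0.145 against 0.205. In bins of 100 bp these differences shrank to 0.0314 in *NEAT1* and -0.00975 in *MALAT1*. Neighboring bins share sequence context and peaks, and these values are a description.

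Since reads that fit several places cannot be assigned to 1 of them, the uniqueness of the sequence was measured as the share of words of 31 bases that occur elsewhere in GRCh37 on either strand. This share was 0 in the first *NEAT1* peak and in the first 2 *MALAT1* peaks, 0.590% in the second and 2.34% in the last untreated *NEAT1* peak. It was also 0 in the 500-bp gap of the treated list and in the 750 bp that the first *NEAT1* peak lost. The third *MALAT1* peak differed, with 31.2% of its words found elsewhere. Over the whole records the shares were 4.93% for *NEAT1* and 2.36% for *MALAT1*. The part of repeated sequence in the third *MALAT1* peak was not tested.

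Both genes were covered by peaks over a far larger part of their length than the median gene with a peak. Among 29051 genes of at least 5 kb, *NEAT1* ranked at place 32 with untreated and 52 with treated peaks by the share of the record under peaks of its own strand. *MALAT1* ranked at places 39 and 30. Among the genes of that length with such a peak, 5431 with untreated and 5873 with treated peaks, the median share was 1.7% and 1.68%. By covered length, *NEAT1* was at place 9 of 64486 genes with untreated and 13 with treated peaks, and at places 2 and 6 among 18702 lncRNA genes. *MALAT1* was at places 98 and 108 of all genes. As many peaks as in *NEAT1*, 3 and 4, or more were found in 144 and 41 genes.

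**Figure D4:**
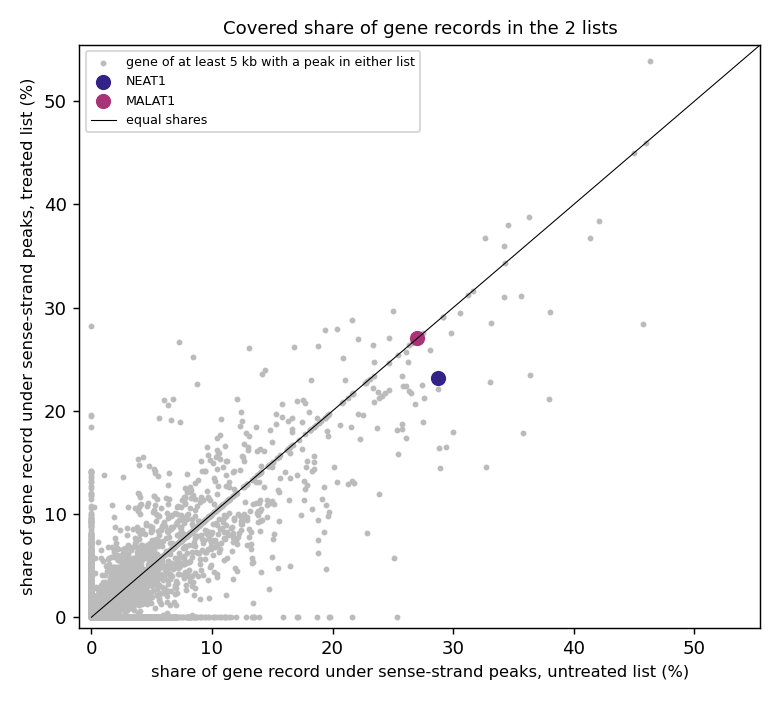
Share of the gene record under peaks of the gene strand in the untreated list (horizontal axis, percent) against the treated list (vertical axis, percent) for genes of at least 5 kb with such a peak in either list, with the line of equal shares. MALAT1 lies on the line at 27.0%, and NEAT1 lies below it at 28.7% and 23.2%.

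Peaks across the end of a gene were less usual than peaks within 1000 bp of its start, which is a looser condition. The untreated list had a sense-strand peak at 5431 genes of at least 5 kb. Of these genes, 63.5% had one within 1000 bp of the start of the record, 7.22% had one across its end, and 2.03% had both. In the treated list these shares were 65.2%, 6.45% and 1.87%. *NEAT1* had both kinds in both lists. *MALAT1* had a peak across the end of its record, and its first peak lay 1115 bp from the start of the record, which is that of its longest transcript.

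Among the 3 genes most like *NEAT1* in the pair of covered shares, out of 12046 other genes of at least 5 kb and within 2 times its length, were *CCDC106* and *RRP7A*, a gene of ribosomal RNA processing. *CCDC106* was covered over 26.9% by untreated and 20.7% by treated peaks, and *RRP7A* over 25.4% in both. Among 11499 genes compared with *MALAT1*, *GLUL*, which encodes glutamine synthetase, was covered over 26.6% in both lists, and 2 genes without a symbol, ENSG00000279073 and ENSG00000263809, over 27.2% and 27.5% in both. All 5 named here are annotated as protein-coding, and the likeness rests on 2 values per gene.

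Of 17 other noncoding RNA genes, chosen by name, 15 had a single record in the annotation. A sense-strand peak was found at 11 of these in untreated and at 10 in treated cells, which are 73.3% and 66.7%, against 6.4% and 6.96% of all lncRNA genes. The 2 sets are unlike, since *TUG1* is annotated as protein-coding and *RMRP* as a ribozyme. They were also not matched for gene length or expression. *GAS5*, a host of small nucleolar RNAs, was covered over 3750 bp and 4000 bp, or 36.3% and 38.7% of its record, a larger share than in *NEAT1* or *MALAT1*. The short records of *TERC* and *RMRP*, of 541 bp and 264 bp, lay wholly under peaks in both lists, so the share depends on record length. *FIRRE* and *JPX*, both on chromosome X, each had 3 peaks in both lists, which covered 1.41% and 1.58% of their much longer records in untreated cells. *FTX*, another noncoding gene, had 1250 bp and 2079 bp. *MIAT* had a peak of 500 bp in the untreated list only. *MEG3*, *TUG1*, *HOTAIR* and *LINC-PINT* had none in either list.

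Genes of the proteins that work with these RNAs were looked at in the same way. Of 12 paraspeckle protein genes, 8 had a sense-strand peak in untreated and 7 in treated cells, against 24.4% and 26.2% of all protein-coding genes. The widest coverage in untreated cells was at *SFPQ*, with 2000 bp, and it had 1250 bp in treated cells. At *SMARCA4*, a chromatin remodeler, it was 1000 bp and 750 bp. *NONO*, named as a core protein of paraspeckles and not for its coverage, had 792 bp and 292 bp. The covered length was larger in the treated list at *RBM14*, with 379 bp and 879 bp, and at *PSPC1*, with 409 bp and 659 bp. At *DAZAP1* it was 750 bp in both lists. All 7 nuclear speckle protein genes had a peak in both lists, and the covered length was larger in the treated list at 2 of them, smaller at 2 and the same at 3. *SON*, a scaffold protein of speckles, had 750 bp in 1 peak and 1899 bp in 3. Among the splicing factor genes, *SRSF7* had 1392 bp and 896 bp, *U2AF2* had 1151 bp and 651 bp, and *SRSF3* and *SRSF2* had 2121 bp and 1163 bp in both. Of 12 genes of RNase P, of RNase Z (*ELAC2*) and of the triple helix reader *METTL16*, 2 had a peak in untreated and 4 in treated cells. These are 16.7% and 33.3%, below and above the 24.4% and 26.2% of all protein-coding genes. *RPP14* had 750 bp and 2000 bp, and *POP4* had 462 bp and 712 bp. *RPP30*, with 1190 bp, and *RPP40*, with 500 bp, had peaks in the treated list only. Of the 5286 protein-coding genes with a treated peak, 3975 also had an untreated one, so such a pattern is common. None of these gene counts has a replicate behind it.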

How the data were processed

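According to the methods, the authors mapped trimmed spKAS-seq reads (Trim Galore) to hg19 using Bowtie2 and took out duplicates (Picard). R-loops were then called from 2 replicates as in earlier work. Versions and thresholds are not given in the sources used here. The deposited lists hold chromosome, start, end and strand of each peak, with no signal, count or other score. Both lists belong to a replicate 1, and nothing in them shows whether they stand for both replicates. Inputs and read-level signal were not analysed here.

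Peaks were read 1-based against GRCh37 and GENCODE release 44 mapped to GRCh37 (64486 genes). All peaks on chromosomes that both name alike lay inside them. Peaks of unplaced contigs, whose names differ, and peaks with more than 50% unknown bases (N) were left out of base composition. Peaks of the lists were matched by strand from 1 bp of overlap. Covered length is the part of the gene record under peaks of its strand. Genes named for likeness had the smallest Euclidean distance in the pair of covered shares. Those given with values from gene lists were among the widest covered, with some exceptions. The exceptions were *NONO*, *RBM14*, *PSPC1*, *DAZAP1*, *MIAT*, *U2AF2*, *TERC*, *RMRP* and genes without a peak. These exceptions were chosen after their values were seen. Some items are not reported here. The members and gene lists were chosen with earlier results of these data known. Interval functions were tested on simulated data. The work used Python 3.11.15, numpy 2.4.6, scipy 1.17.1, pysam 0.24.0 and matplotlib 3.10.9.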

Additional observations from a re-analysis of the deposited data

How the results depend on the processing

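No paired analysis was possible because only 1 peak list was given for each condition. Of 70 values recomputed under alternatives for 24 results, 55 stayed within 1.5 times the first value, within 250 bp for lengths or within the interval for shares, and 15 moved. Peak counts of the windows were the same with 2 kb, with the record alone and by midpoint, and the covered lengths were the same on exons, on the longest transcript, on either strand and with peaks wider than 500 bp. With 50 kb on either side, the *NEAT1* window held 4 untreated and 6 treated peaks, and the *MALAT1* window 4 and 5. These counts are larger by construction, since both windows then take in peaks between the genes.

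With a 50% reciprocal overlap, 2 of the 3 untreated and 2 of the 4 treated *NEAT1* peaks were matched. Over the whole lists, 69.3% of untreated and 63.9% of treated peaks were. With a 90% reciprocal overlap, 0 *NEAT1* peaks were matched in either list, and all *MALAT1* peaks were. Among lncRNA genes of at least 5 kb, *NEAT1* ranked at places 11 and 12 by covered share in the untreated and treated lists, and *MALAT1* at 12 and 7. Among 12047 genes within 2 times its length, *NEAT1* ranked at places 1 and 7. *MALAT1* ranked at places 33 and 27 among 11500 genes within 2 times its own length. Fewer genes enter by construction. In bins of 100 bp, the difference in median skew between covered and uncovered bins was 0.0314 in *NEAT1* and -0.00975 in *MALAT1*, and that in G content of *MALAT1* was 2.00 percentage points. The cause was not tested. The depth behind the peaks is unknown.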

Other observations

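Outside the windows, the 52099 bp between *NEAT1* and *MALAT1* held on the minus strand a 1750-bp peak (65241226 to 65242975, GRCh37) with the same borders in both lists. It overlaps no annotated gene. The treated list alone held a second peak there, of 500 bp on the plus strand from 65244976 to 65245475, 31965 bp past the end of *NEAT1* and 19636 bp before *MALAT1*. It overlaps an unnamed lncRNA gene of the minus strand, ENSG00000289883. These are the peaks that lie between the 2 genes.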
